A study of Mus musculus with 6 samples.

Results

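The promoters of the genes that encode ribosomal proteins were examined in ATAC-seq peak lists of NMuMG cells, an epithelial line derived from the normal mouse mammary gland. ATAC-seq marks open chromatin by letting the transposase Tn5 insert sequencing adapters where DNA is accessible. Members were all protein-coding genes of the GENCODE vM1 annotation whose symbol begins with Rpl or Rps and a number, together with Rplp0, Rplp1, Rplp2 and Rpsa. Rps6k kinase genes and genes with a single exon were left out, the latter because they are mostly processed copies. This gave 83 of the 19522 protein-coding genes with several exons.

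Serum and insulin were withdrawn for 6 h before every treatment. Vehicle cells then received BSA in dilute HCl for 2 h (the sample label writes Tris-HCl), and treated cells received TGFβ1 at 5 ng/ml for 2 h or for 12 h. With 2 biological replicates in each of these 3 conditions, the study has 6 samples, and the authors turned each pair of replicates into a single list of peaks found reproducibly in both. All cells came from 1 line, for which the labels name no genetic change. The vehicle was collected at 2 h only. For the 12 h list, the effect of TGFβ and that of longer time without serum and insulin therefore cannot be told apart.

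The lists hold positions and no read counts, so the number of reads behind a single peak cannot be read from them, and the library totals that the study states were not analysed here. Neither a spread between replicates nor a test between conditions could be computed from the lists. What can be read from them is presence and width. Distinct intervals of at least 150 bp with gaps under 1000 bp were merged into regions, and the widest region within 1000 bp of the 5′ end of any transcript of a gene is called its start region. Width was called changed where it differed from vehicle by at least 1.5 times. Shares carry 95% Wilson intervals, which cover counting error only, since genes of 1 list are not replicates of a condition. The vehicle list held 16765 regions, the 2 h list 32548 and the 12 h list 33079, so that the vehicle list was the shortest.

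Cytosolic ribosomes consist of a large and a small subunit, whose proteins carry the names Rpl and Rps. The P-stalk, made of the products of Rplp0, Rplp1 and Rplp2, recruits translation factors to the large subunit. These genes are transcribed strongly in growing cells, many of them carry small nucleolar RNAs in their introns, and their messages typically start with a run of pyrimidines, the 5′ TOP, through which the growth-sensing kinase mTOR controls their translation. TGFβ halts the growth of epithelial cells and drives their transition to a mesenchymal state, of which this line is a common model.

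The 83 members comprised 42 Rpl genes, 31 Rps genes, the 3 P-stalk genes, and 7 paralogs or other symbols that the rule takes. The last were Rpl22l1, Rpl36al, Rpl39l, Rpl3l, Rpl7l1, Rps27l and Rps19bp1, of which Rps19bp1 encodes a protein that binds Rps19 and is not a ribosomal protein. Fau encodes a ribosomal protein fused to a ubiquitin-like protein, and fell outside the rule by its name. The members were spread over 19 chromosomes, with 14 of them on chromosome 7. Another protein-coding gene started within 1000 bp of the main start of 12 members, in 11 cases on the opposite strand, and 30 members together held 58 small nucleolar RNA genes. The main start is the 5′ end of the protein-coding transcript with the longest coding sequence. The mammary epithelial label was checked at Krt8 and Krt18, which had start regions in all 3 lists, and at Cdh1, which had none in vehicle and 1 of 431 bp in both TGFβ lists. Epcam, a further epithelial gene, and Ptprc, a gene of blood cells, had none in any list.

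Promoter letters are shown for 8 members, Rplp0, Rpsa, Rps3, Rps6, Rps19, Rpl3, Rpl5 and Rpl11, because they span the P-stalk and both subunits, a start that is open in every list and widens, starts that keep their width, and Rpl3, which has no region. Each line runs 5′ to 3′ on the strand of the gene, from 100 bases before the main start to the 20th base from it, on NCBIM37 (mm9). Capitals mark exact matches to a searched motif.
Rplp0: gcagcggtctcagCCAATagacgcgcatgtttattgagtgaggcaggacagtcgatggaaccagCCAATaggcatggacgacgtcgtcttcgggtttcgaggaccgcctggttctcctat
Rpsa: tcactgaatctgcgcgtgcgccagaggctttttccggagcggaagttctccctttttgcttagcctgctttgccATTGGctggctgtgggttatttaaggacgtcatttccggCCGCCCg
Rps3: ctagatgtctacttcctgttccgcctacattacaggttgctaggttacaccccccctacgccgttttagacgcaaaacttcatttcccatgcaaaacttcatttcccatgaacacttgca
Rps6: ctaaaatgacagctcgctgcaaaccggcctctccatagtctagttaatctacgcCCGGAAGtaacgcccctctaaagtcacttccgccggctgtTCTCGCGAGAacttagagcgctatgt
Rps19: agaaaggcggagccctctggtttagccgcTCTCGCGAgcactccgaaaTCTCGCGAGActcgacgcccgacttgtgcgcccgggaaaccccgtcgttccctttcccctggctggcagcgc
Rpl3: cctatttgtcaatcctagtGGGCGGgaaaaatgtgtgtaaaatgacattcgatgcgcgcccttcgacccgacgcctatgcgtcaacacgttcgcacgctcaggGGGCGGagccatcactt
Rpl5: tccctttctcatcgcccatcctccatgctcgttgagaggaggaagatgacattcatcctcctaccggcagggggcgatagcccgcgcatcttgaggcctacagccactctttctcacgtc
Rpl11: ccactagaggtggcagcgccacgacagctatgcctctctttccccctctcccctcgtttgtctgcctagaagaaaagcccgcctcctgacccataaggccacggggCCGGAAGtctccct
The windows lie at chr5:116009376-116009495 (plus strand) for Rplp0, chr9:120036784-120036903 (plus) for Rpsa, chr7:106632229-106632348 (minus) for Rps3 and chr4:86503297-86503416 (minus) for Rps6. Those of the others are chr7:25669555-25669674 (plus) for Rps19, chr15:79913817-79913936 (minus) for Rpl3, chr5:108329421-108329540 (plus) for Rpl5 and chr4:135609289-135609408 (minus) for Rpl11. Rps6 has CCGGAAG, the core to which ETS factors bind, and then the palindrome TCTCGCGAGA across its start. In Rps19 the 8-base element TCTCGCGA occurs at 2 places, of which the one nearer to the start is again the full palindrome. Rplp0 shows a pair of CCAAT boxes, to which NF-Y binds, Rpl3 a pair of GGGCGG boxes of the Sp and KLF factors, and Rpl11 an ETS core just inside the transcript. Rps3 and Rpl5 have no match in this stretch.

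Of the 83 members, 75 had a start region in the vehicle list, 75 in the 2 h list and 75 in the 12 h list, and they were the same 75 genes (90.4%, 95% Wilson interval 82.1 to 95). Among all genes, 46.6% had a region in the vehicle list, 53.2% in the 2 h list and 53% in the 12 h list, a background that includes genes silent in this line. No member was gained or lost under TGFβ. Among all genes in any list, 84.1% were in all 3, and of the genes without a vehicle region 12.8% had a region at 2 h and 12.7% at 12 h. Groups with related housekeeping roles, chosen by name, lay nearer to the members than the whole genome did. Of 76 genes of the mitochondrial ribosome, 69 had a region in vehicle and 72 in each TGFβ list, and of 41 proteasome genes 39, 38 and 39 had one.

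The 8 members without a region included Rpl3, Rpl15, Rps21 and Rps29 and the paralogs Rpl3l and Rpl39l. Rpl3 lies close to the peptidyl transferase centre of the large subunit. Of the paralogs, Rpl3l is known from muscle and Rpl39l from testis. From the 5′ ends of Rpl3, the nearest region was 7747 bp away in vehicle, 7718 bp after 2 h and 7762 bp after 12 h. For Rps21 these distances were 5823, 5802 and 5829 bp. Rpl15 was farther off, by 31013, 31013 and 31006 bp. Over the 8 genes, the distance in vehicle ran from 3556 bp for Rpl3l to 143223 bp for Rpl39l. The 8 genes also had no interval under 150 bp near their starts in any list. A start that is not listed need not be closed, since signal below the threshold of the peak caller leaves no line. Neither does a peak that was not reproducible between the replicates.

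The lists thus differed for the members in width and not in presence. The median start region of the 75 members measured 604 bp in vehicle, 774 bp after 2 h and 916 bp after 12 h. Over the genes of the whole annotation with a region in all 3 lists, the medians were 771, 972.5 and 1008 bp, so the median member was narrower than the median gene in every list. This was not particular to the members. Medians were 558, 840.5 and 855 bp for the proteasome and 648, 736 and 816 bp for the mitochondrial ribosome. Ribosome biogenesis genes had 673.5, 813.5 and 909.5 bp. Translation factors and other genes with TOP messages were wider, with 884, 1024.5 and 1080 bp. The plot of widths by condition gives each member.

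**Figure D1:**
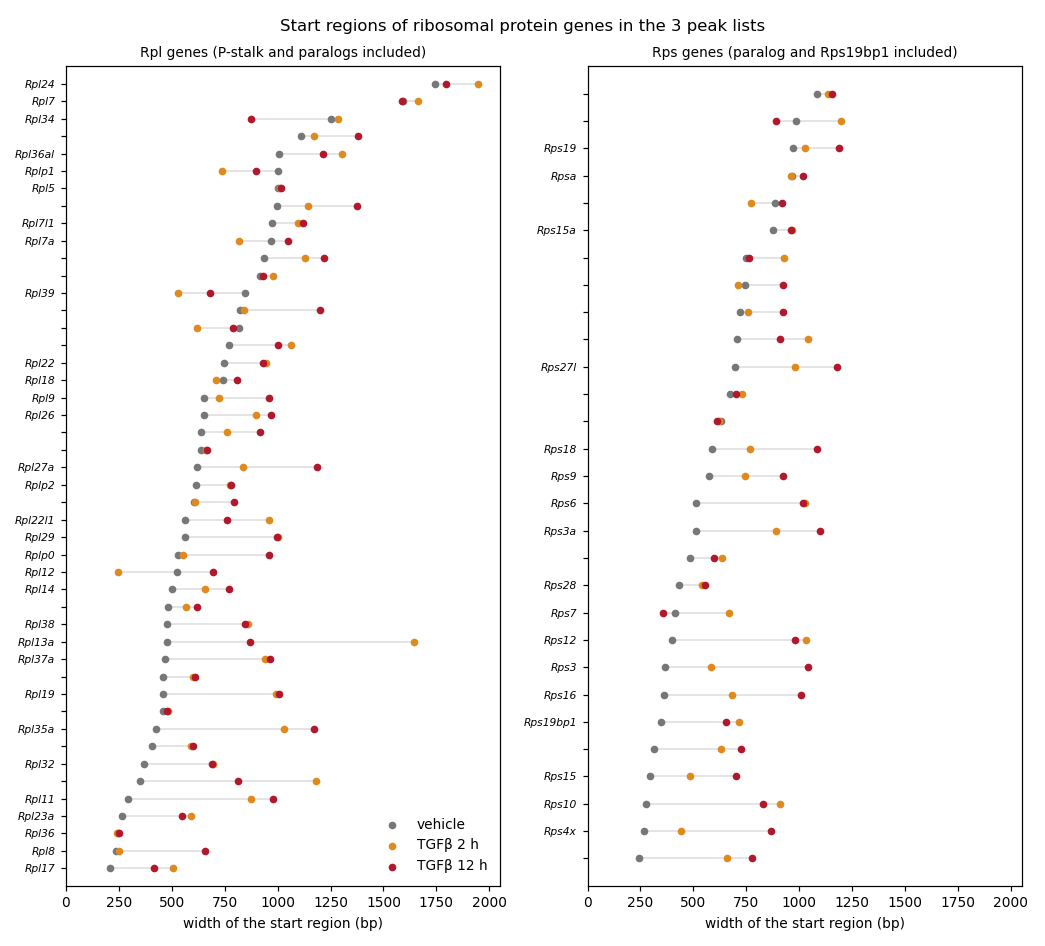
Width of the start region in bp (x axis) for each of the 75 ribosomal protein genes with a region, Rpl genes on the left and Rps genes on the right, ordered by vehicle width, with rows labelled for genes named in the text; grey points stand for vehicle, orange for TGFβ 2 h and red for TGFβ 12 h, 1 list each. Orange and red points lie right of grey for most narrow regions at the bottom, as for Rpl11 with 294, 873 and 980 bp, while wide ones such as Rpl24 with 1743, 1948 and 1797 bp move little.

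At 2 h, 24 of the 75 members were at least 1.5 times wider than in vehicle (32%, 22.5 to 43.2), beside 27.4% of all genes with a region in both lists. At 12 h, 29 were (38.7%, 28.5 to 50), beside 31.7% of all genes. Both backgrounds lie within the intervals of the members. With a threshold of 25% wider in place of 1.5 times, 46 members were called at 12 h (61.3%, 50 to 71.5). The share of all genes, 49.8%, lay just below that interval. The 2 members narrowed by this measure at 2 h were Rpl12 and Rpl39 (background 0.929%), and at 12 h there was none (background 0.61%). By any amount, 64 members were wider at 2 h (85.3%, background 80.8%) and 67 at 12 h (89.3%, background 85.1%). The median ratio to vehicle was 1.26 after 2 h and 1.32 after 12 h. On the log2 scale the medians of the members were 0.34 and 0.40, and those of all genes 0.26 and 0.32.

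**Figure D2:**
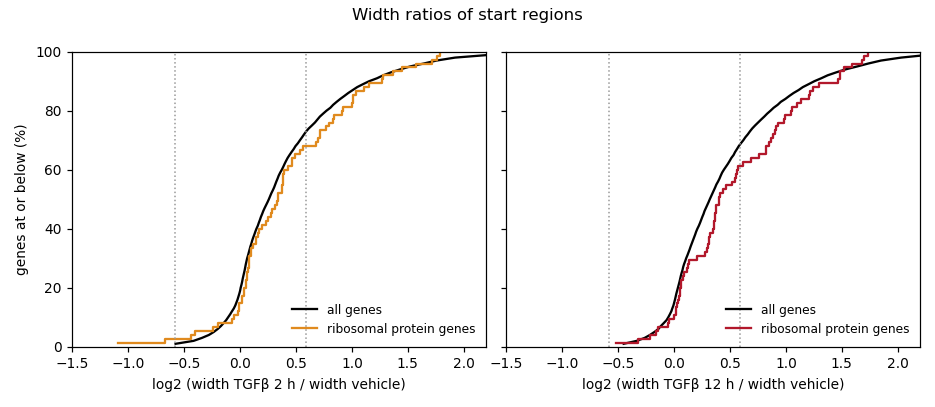
Share of genes (y axis, percent) at or below a given log2 ratio of TGFβ to vehicle width (x axis), for ribosomal protein genes in colour and all genes with both regions in black, at 2 h on the left and 12 h on the right; dotted lines mark 1.5 times. The coloured curves lie right of the black ones through their middle, with medians of 0.34 against 0.26 and 0.40 against 0.32, and meet them at the high end.

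Both TGFβ lists share the vehicle list as reference, so their values are given side by side. The 22 members called wider at both times included Rpl11, Rpl13a, Rpl17, Rpl19, Rpl23a, Rpl29, Rpl32, Rpl35a, Rpl37a, Rpl38, Rps3, Rps3a, Rps4x, Rps6, Rps10, Rps12, Rps15, Rps16 and Rps19bp1. The 22 made up 91.7% of the calls at 2 h and 75.9% of those at 12 h. The same overlap over all genes is not given here, and the vehicle width enters both ratios. The overlap is therefore not read as a trait of the members. Rps7 and Rpl22l1 were called at 2 h alone. Rpl8, Rpl14, Rpl27a, Rplp0, Rps9, Rps18 and Rps27l were called at 12 h alone. Set against each other directly, the 12 h regions were at least 1.5 times wider than the 2 h regions in 5 members (background 7.41%) and at least 1.5 times narrower in 2 (background 3.87%), with a median ratio of 1.02.

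Rpl11, which enters the large subunit together with Rpl5 and binds the p53 regulator Mdm2 when free, had the highest ratio at 12 h. Its region measured 294 bp in vehicle (chr4:135609220-135609513), 873 bp after 2 h and 980 bp after 12 h (chr4:135608682-135609661), 2.97 and 3.33 times the vehicle width. Most of the added length lay on the transcribed side, where the region ended 88 bp from the main start in vehicle, 615 bp after 2 h and 626 bp after 12 h. Rpl5, its partner, kept its width at 1001, 1013 and 1015 bp. The vehicle region of Rpl11 also had the lowest score among the members, 619, on the scale of the authors that ends at 1000.

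Rps4x, the X-linked copy of a small-subunit protein, went from 268 bp in vehicle to 439 bp after 2 h and 867 bp after 12 h, 3.24 times its vehicle width. In Rps3, which sits where the mRNA enters the small subunit, the widths were 365, 584 and 1043 bp. Both were wider at 12 h than at 2 h, whereas Rps10 was not. The region of Rps10 measured 276 bp in vehicle, 909 bp after 2 h and 830 bp after 12 h. It lay inside the gene, 1167 bp downstream of the main start in vehicle, near the 5′ end of another annotated transcript. Its widths thus do not describe the annotated main start, and which start is in use was not tested.

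Rpl8, a large-subunit protein near the peptidyl transferase centre, had a narrow region at 2 h and a wide one at 12 h, with 235 bp in vehicle, 251 bp after 2 h and 659 bp after 12 h. Rplp0, the base of the P-stalk and a common reference gene in RT-qPCR, had the same order, with 531, 551 and 959 bp. In Rplp0 the upstream edge stayed in place, at 257, 245 and 250 bp from the main start, and the downstream edge moved from 273 to 305 and 708 bp. The other P-stalk genes differed from it, as Rplp2 measured 613, 774 and 778 bp and Rplp1 measured 1002, 737 and 896 bp.

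Rps6, the small-subunit protein that the S6 kinases phosphorylate after growth signals, had 514 bp in vehicle, 1027 bp after 2 h and 1017 bp after 12 h. It thus had its whole increase by 2 h, at a ratio of 2.00, and both edges moved outwards. Rpl13a, a large-subunit protein that can leave the ribosome and silence inflammatory messages, had 477, 1644 and 871 bp. The 2 h region of Rpl13a reached 1580 bp upstream and joined 2 intervals, while those of vehicle and 12 h held 1 each, so that the value at 2 h includes sequence between and beyond them.

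Several members kept their width. Rpsa, which encodes a small-subunit protein also known as the laminin receptor, measured 965, 961 and 1019 bp. At the narrow end, Rpl36 had 245 bp in vehicle, 243 bp after 2 h and 249 bp after 12 h, with both edges within 7 bp of their vehicle place. In all, 18 members were within 10% of their vehicle width at 12 h, among them the widest in vehicle, Rpl24 and Rpl7. Over all genes, the 6th and 33rd percentiles of the 12 h log2 ratio were -0.141 and 0.139. These values lie near a change of 10% either way, so the count of members is near the share of all genes. Rpl24, which forms a bridge between the subunits, had 1743, 1948 and 1797 bp, and Rpl7 had 1590, 1661 and 1589 bp. Both were joined from several intervals, 3 in vehicle and 2 at each later time for Rpl24, and 2 in every list for Rpl7. The region of Rpl7 ended 111 bp upstream of the main start in all 3 lists. Rps19, a gene of Diamond-Blackfan anaemia, widened by less than the threshold, with 971, 1028 and 1189 bp and a ratio of 1.22 at 12 h.

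The lowest ratios at 12 h belonged to Rpl34, Rpl39, Rps7 and Rplp1, and none reached a 1.5-fold narrowing at 12 h. Rpl34 had 1252 bp in vehicle, 1286 bp after 2 h and 872 bp after 12 h, and its downstream edge lay 910 bp from the start in vehicle and 524 bp from it at 12 h. The vehicle region of Rpl34 joined 2 intervals, while those of 2 h and 12 h held 1 each. Rpl39, a small protein that lines the exit tunnel of the large subunit, had 848, 531 and 680 bp. Rps7 was called wider at 2 h and was narrower than vehicle at 12 h, with 411, 667 and 354 bp. Over all 75, 60 members were wider than vehicle at both times by any amount, and 4 at neither time. A further 7 were wider at 12 h alone, and 4 at 2 h alone. These patterns were not counted over all genes. For each time by itself, 80.8% of genes with both regions had widened by any amount after 2 h, and 85.1% after 12 h. The pattern counts are therefore not read as a trait of the members. At 2 h Rpl12 was the narrowest relative to vehicle, with 523, 245 and 695 bp. Its 2 h region kept the downstream edge and lost the upstream one, which lay 314 bp from the start in vehicle and 31 bp at 2 h, next to Lrsam1 on the opposite strand. The 2 h region of Rpl18, 711 bp, was not at the same place as in vehicle. The region over its main start measured 740 bp in vehicle, 575 bp after 2 h and 806 bp after 12 h.

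How much a start widened went with how wide it was in vehicle. The 19 members up to 428 bp in vehicle had median ratios of 2.02 after 2 h and 2.37 after 12 h, and 16 of them were called at each time (84.2%, against 76% and 84.7% of all genes in the same range). Among the 19 members from there to 604 bp, 8 were called at 2 h (42.1%, against 45.5%) and 11 at 12 h (57.9%, against 55.1%). The 18 members up to 834 bp had 0 calls at 2 h (background 22.9%) and 2 at 12 h (11.1%, against 28%). Of the 19 wider members none was called at either time, beside 6.91% and 7.28% of all genes. Within the middle 2 ranges together, 8 of 37 members were called at 2 h (21.6%, against 31.8%) and 13 of 37 at 12 h (35.1%, against 38.7%). The median ratios of all genes at 12 h, 2.36, 1.57, 1.28 and 1.07 from the narrowest to the widest range, were close to those of the members, 2.37, 1.61, 1.28 and 1.06. At 2 h all genes had 2.09, 1.44, 1.24 and 1.05, and the members 2.02, 1.31, 1.15 and 1.06. The members thus lay lower at 2 h in all but the widest range. The vehicle width enters both the range and the ratio, so the order of the ranges is only a description. Under 500 bp in vehicle were 28 of the 75 members (37.3%) and 20.2% of all genes with a region in all 3 lists, which goes with the slightly larger called shares of the members over all widths.

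**Figure D3:**
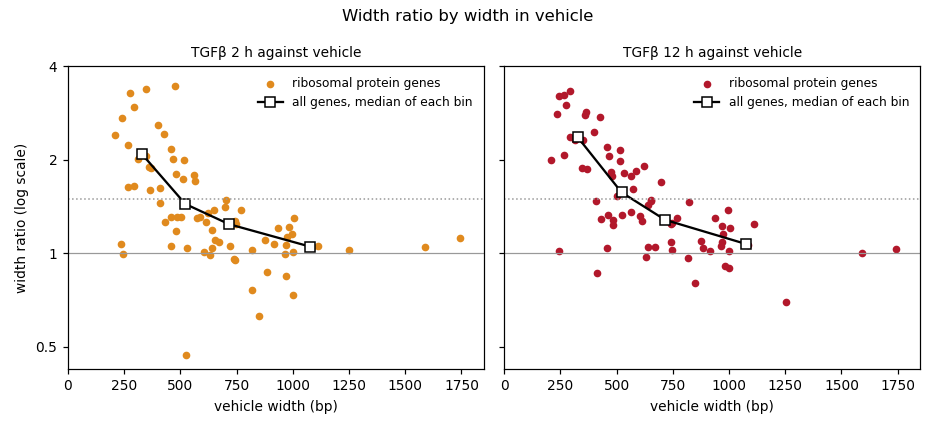
Ratio of TGFβ to vehicle width (y axis, log scale) against vehicle width in bp (x axis) for each ribosomal protein gene, at 2 h on the left and 12 h on the right; open squares join the medians of all genes in 4 ranges of vehicle width, and the dotted line marks 1.5 times. Points fall from left to right along the squares, which go from 2.36 to 1.07 at 12 h.

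Widths of the members became more alike under TGFβ. The quotient of the upper to the lower quartile was 1.95 in vehicle, 1.59 after 2 h and 1.42 after 12 h, and over all genes it was 1.87, 1.62 and 1.56. Starts under 500 bp numbered 28 in vehicle, 6 after 2 h and 4 after 12 h (37.3%, 8% and 5.33%), beside 20.2%, 5.07% and 3.36% of all genes. Those over 1000 bp numbered 8, 20 and 23 (10.7%, 26.7% and 30.7%), beside 26.9%, 46.8% and 51.1%. The shift thus ran the same way over all genes. In the 12 h list the quartiles of the members were 713.5 and 1016 bp.

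The start regions were placed around the main start, which 71 members covered in vehicle, 70 after 2 h and 71 after 12 h (94.7%, 93.3% and 94.7%). Over all genes with a region in every list, the shares were 85.9%, 88.8% and 89.3%. The median region of the members reached 299 bp upstream and 280 bp downstream in vehicle, 345 and 408 bp at 2 h, and 406 and 470 bp at 12 h. The downstream edge gained more than the upstream one in 42 members at 2 h (56%) and in 45 at 12 h (60%), near the 57.4% and 57.9% of all genes. By gene, the median gain at 12 h was 56 bp upstream and 175 bp downstream, against 34 and 90 bp over all genes. At 12 h the upstream edge lay farther out in 61 members (81.3%) and the downstream edge in 63 (84%), against 76% and 79.3% of all genes. In 12 h regions, the annotation placed an untranslated exon in 72 members, a coding exon in 53, an intron in 71 and upstream sequence in 73.

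**Figure D4:**
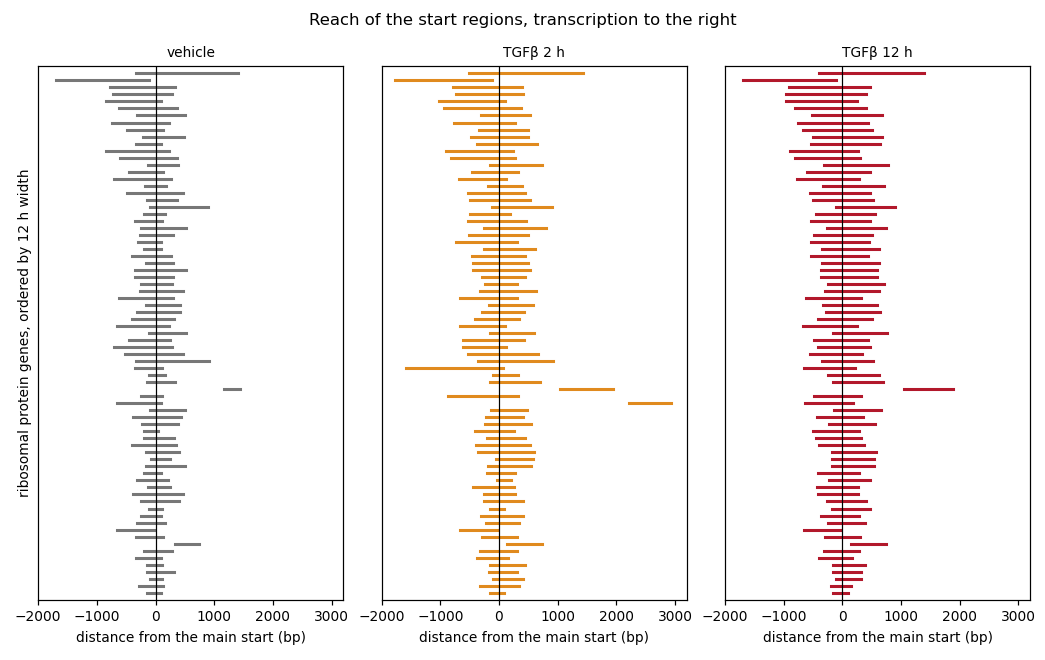
Extent of each start region relative to the main start (x axis, bp, transcription to the right) in vehicle, TGFβ 2 h and TGFβ 12 h, 1 horizontal line per ribosomal protein gene in the order of 12 h width. Most lines cross 0, and their medians extend from 299 bp upstream to 280 bp downstream in vehicle and from 406 to 470 bp at 12 h; lines that do not cross 0 include Rps10 on the right and Rpl7 on the left.

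Split by role, the Rpl and Rps genes overlapped in their values. Of 40 Rpl genes with a region, 11 were called wider at 2 h (27.5%, 16.1 to 42.8) and 14 at 12 h (35%, 22.1 to 50.5), with median widths of 612.5, 837.5 and 894 bp. Of 27 Rps genes, 11 were called at 2 h (40.7%, 24.5 to 59.3) and 12 at 12 h (44.4%, 27.6 to 62.7), with median widths of 573, 757 and 919 bp. Each interval holds the other share, so no difference between the subunits was detectable with these numbers. Among the 5 paralogs and other symbols with a region, 2 were called at each time. Members with a start of another gene within 1000 bp had 2 calls of 11 at 2 h and 3 of 11 at 12 h, and the members without one had 22 and 26 of 64. Hosts of small nucleolar RNAs had 10 and 11 calls of 28, and members without them had 14 and 18 of 47.

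Other gene groups of protein synthesis and turnover, set beside the members, had called shares on both sides of the members' 32% at 2 h and below the members' 38.7% at 12 h. All 4 groups had intervals at 12 h that overlap that of the members. The mitochondrial ribosome had 20.3% at 2 h (12.5 to 31.2) and 26.1% at 12 h (17.2 to 37.5), and the proteasome 34.2% (21.2 to 50.1) and 35.9% (22.7 to 51.6). Ribosome biogenesis genes, such as those for nucleolin and the box C/D proteins, had 36.4% and 31.8% of 22 genes. Translation factors and other genes with TOP messages, 21 genes with a region in vehicle and at both times, had 23.8% and 28.6%, and were wide from the outset, with a median of 884 bp in vehicle. Eef1a1, the elongation factor that brings aminoacyl-tRNA to the ribosome, had 1609, 1777 and 1614 bp. Gnb2l1, which encodes the ribosome-bound protein Rack1, had 1000, 1181 and 1154 bp. Npm1, a nucleolar chaperone of ribosome assembly, had 578, 597 and 1349 bp, while Ncl had 1676, 1382 and 1391 bp. Fau had no region in any list.

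The letters around the main start were read for every member, from 250 bases before it to 50 bases after, and exact matches on both strands were counted. The element TCTCGCGA was found in 12 of 83 members (14.5%, 8.47 to 23.6), beside 1.54% of 19517 promoters of all genes and 2.52% of 8993 promoters of genes with a region in all 3 lists. Among the 12 were Rpl7a, Rpl17, Rpl23a, Rpl26, Rpl27a, Rps3a, Rps6, Rps15a, Rps19 and Rps28. A full TCTCGCGAGA palindrome is counted here as 2 overlapping matches of 1 gene. The ETS core CCGGAAG was found in 25 members (30.1%, 21.3 to 40.7), beside 12.1% and 20.6%. Among the 75 members with a region, which compare with the latter, it was found in 20 (26.7%, 18 to 37.6), an interval that holds 20.6%. There TCTCGCGA was found in 11 of 75 (14.7%, 8.39 to 24.4). The element AAGATGGC, bound by YY1, was in 6 members (7.23%, 3.36 to 14.9), beside 3.42% and 5.63%. The nearest match lay at a median of -18 bases from the main start for TCTCGCGA and of -23 for the ETS core, and at 27.5 for YY1.

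Other boxes gave shares nearer to those of all promoters, but not all were near those of genes with a region in all 3 lists. GGGCGG was in 45 members (54.2%), beside 49.1% of all promoters and 68.5% of those with a region in all 3 lists, and CCAAT in 26 (31.3%), beside 37.5% and 39.8%. TATAAA was in 10 (12%), beside 11% and 5.94%, and GCGCATGCG, bound by NRF1, in 2 (2.41%), beside 2.34% and 3.91%. Among the 75 members with a region, the share was 53.3% for GGGCGG (42.2 to 64.2), an interval below 68.5%. That of TATAAA was 12% (6.44 to 21.3), an interval above 5.94%. CCAAT had 29.3% (20.2 to 40.4) and GCGCATGCG 2.67% (0.734 to 9.21), intervals that hold 39.8% and 3.91%. Matches linked to TGFβ signalling were few. The AP-1 letters TGACTCA or TGAGTCA were in 3 members, Rpl9, Rpl22 and Rps3 (3.61%, beside 4.32% and 3.16%). The SMAD palindrome GTCTAGAC was in 0 of 83 members, for which the upper Wilson bound is 4.42%, beside 0.179% and 0.189%. A match describes letters and not binding, and a window without one says nothing about the factor.

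A 5′ TOP, taken as C and 4 further pyrimidines with the C at most 5 bases from the main start, was present in 21 members (25.3%, beside 18.2% of all promoters). Annotated 5′ ends are not always where transcription begins. With start sites of RefSeq, which matched 62 members by symbol, the TOP was present in 29 of 62 (46.8%, 34.9 to 59), beside 22.8% of all genes. A run of at least 8 pyrimidines within 50 bases of the main start was present in 53 members (63.9%), beside 34.3% of all promoters, and in 65.3% of the members with a region, beside 30.8% of genes in all 3 lists, a measure chosen after the values were seen. Median GC content was 56.3% in the members and 57% in all promoters, and the median ratio of observed to expected CpG was 0.85 against 0.61. Set against genes with a region in all 3 lists, the 75 members with a region had a median GC content of 56% beside 61.7% and a CpG ratio of 0.85 beside 0.80, so most of the gap in CpG was shared by genes with listed starts.

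**Figure D5:**
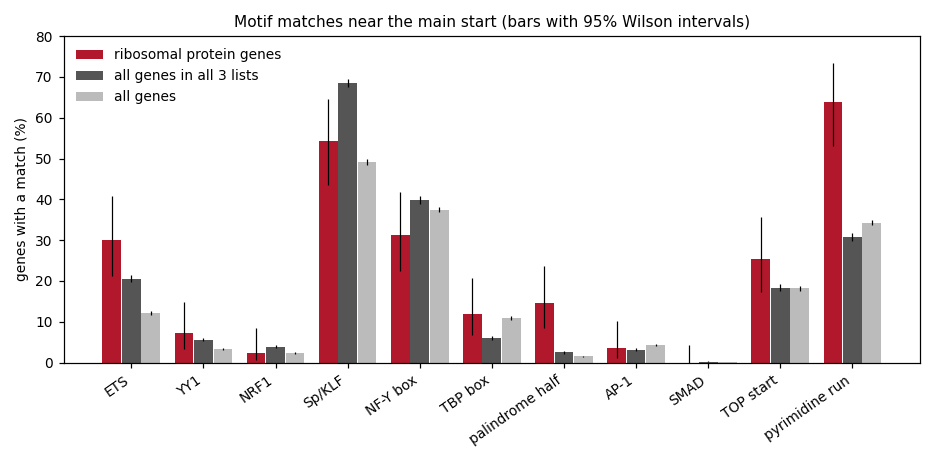
Share of promoters (y axis, percent) with an exact match of each motif near the main start, with 95% Wilson intervals as bars, for 83 ribosomal protein genes in red, genes with a region in all 3 lists in dark grey and all genes in light grey; the palindrome element is TCTCGCGA. The red bar exceeds both grey bars for the palindrome element (14.5% against 2.52% and 1.54%) and the pyrimidine run. For the ETS core (30.1%) its interval starts just above the dark grey bar (20.6%), which is over genes with a region while the red bars are over all members. It also exceeds both grey bars for YY1, the TBP box (TATAAA) and the TOP start, with intervals that hold the light grey bar.

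Set beside width, the 11 members with TCTCGCGA and a region had a median vehicle width of 514 bp, against 608.5 bp for the 64 without it, and 12 h medians of 969 and 901.5 bp. Of these, 6 of 11 (54.5%) and 23 of 64 (35.9%) were called wider at 12 h. The median ratios at 12 h were 1.91 and 1.31. With ETS cores the values lay closer, as 9 of 20 members with one (45%) and 20 of 55 without (36.4%) were called. Members with the element were also narrower in vehicle, and narrower starts had larger ratios in the ranges above. The part of width in this difference was not tested. Of the 8 members without a region, 5 held an ETS core and 1 the element.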

How the data were processed

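ATAC-seq was performed in 6 samples of NMuMG cells, 2 biological replicates for each of 3 conditions, grouped by the sample labels. The authors ran the ENCODE pipeline on the reads, mapped them to mm9, called peaks with MACS2 2.1.2 and kept the peaks reproducible between both replicates. The deposited files hold 1 peak list per condition, with chromosome, start and end. A score column deposited by the authors in the vehicle list was used only within that list, since in the TGFβ lists the same column numbers the lines. Reads of single replicates were not analysed, so replicates were not compared.

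Members and gene lists were chosen with earlier results of these data known. Named members were those missing from a list, the 6 highest and 4 lowest 12 h ratios, the 3 widest and 3 narrowest in vehicle, and 9 examples (Rplp0, Rpsa, Rps3, Rps6, Rps19, Rpl3, Rpl5, Rpl11, Rpl13a). No peak passed the end of its NCBIM37 chromosome. Interval functions were tested on simulated data, with 0 of 3050 comparisons in disagreement. Alternatives were other merge distances, width minimums, start distances, transcripts, list lengths, width measures, member lists and fold thresholds. The ranges of vehicle width, the RefSeq starts, the pyrimidine run and the promoter background of genes in all 3 lists were chosen after seeing the data. Python 3.11.15, numpy 2.4.6, scipy 1.17.1 and matplotlib 3.10.9 were used. Some members that the naming rule takes are counted but not reported by name here.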

Additional observations from a re-analysis of the deposited data

How the results depend on the processing

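No paired analysis was possible because each processed peak list used here was made from both replicates of a condition and the reads of single replicates were not analysed, and leaving out a replicate was not possible for the same reason. The threshold moved the counts by construction. With 25% wider in place of 1.5 times, 39 members were wider at 2 h (52%, all genes 44.1%) and 46 at 12 h (61.3%, all genes 49.8%), and with 2 times, 13 (17.3%, all genes 13.2%) and 16 (21.3%, all genes 15.8%). In 104 other results of alternatives, counts stayed within 1.5 times and medians within their binomial 95% intervals. The allowance for counts is wide, and several alternatives gave the same counts and medians as the main setting, so this tally is a weak check of stability. The length of the lists touched presence. With both TGFβ lists reduced to the number of intervals in vehicle, widest first, 61 members had a region at 2 h and 68 at 12 h, and 17 of 61 (27.9%, all genes 22.9%) and 26 of 68 (38.2%, all genes 28%) were called wider. That setting keeps regions by the width that is then compared, so its values do not bear on stability. Without members near another start, 22 and 26 of 64 were called. With the TGFβ region that overlaps the vehicle region, an alternative chosen after seeing the data, 24 and 29 were. The lists give no reads per peak, and genes of 1 list are not independent.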

Other observations

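The vehicle score, on the authors' scale that ends at 1000, was read beside width. It was 1000 in 57 of the 75 ribosomal protein genes with a vehicle region (76%, 95% Wilson interval 65.2 to 84.2), beside 72.1% of 9099 genes of the whole annotation. The lowest value was 619, in Rpl11, and 18 members lay below the highest value, among them Rpl8, Rpl17, Rpl36 and Rps4x, which are also among the narrowest. Others of the 18 were wide in vehicle, up to 1111 bp with a score of 936. Rps3 and Rps10, narrow as well, had 1000.

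The number of lines that the authors deposited for a region also rose. The median region of the members held 3 lines in vehicle, 4 at 2 h and 4 at 12 h, against 4, 4 and 5 over all genes. A single interval made up the region of 65 members in vehicle, 62 after 2 h and 67 after 12 h, so joining of intervals took part in few of the widths. No 2 members shared a region, as the 75 members had 75 distinct regions in each list.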
